A study of Mus musculus with 12 samples.

Results

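The genes described here are the ligands, receptors, antagonists and effectors of the Wnt pathway in mouse corneal endothelial cells (CEC). They were chosen by symbol alone, as the protein-coding rows named after a *Wnt*, *Fzd*, *Sfrp*, *Dkk*, *Rspo*, *Dvl* or *Tcf7* family gene, or after 1 of a set of single genes such as *Lrp5*, *Axin2* and *Ctnnb1*. The rule found 47 genes of 15838, of which 12994 were protein-coding. RNA was taken from Descemet membrane, the basement membrane that carries the CEC, of C57BL/6 mice at 10 weeks of age. There were 12 libraries, 3 each from male *Slc4a11*-/- (male KO), female *Slc4a11*-/- (female KO), male *Slc4a11*+/+ (male WT) and female *Slc4a11*+/+ (female WT) mice. KO mice carry a targeted deletion of several exons of *Slc4a11*, which encodes a membrane transporter of CEC, and model congenital hereditary endothelial dystrophy. The deletion is constitutive, so that other cells of the eye carry it too. The sample records describe the membranes as pooled by genotype, whereas the methods of the study describe the membranes of both eyes of a mouse processed as 1 pair, so that the number of mice behind a library is not certain.

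The value given for each gene is the authors' mean over all libraries, on the scale of log2 CPM, the counts scaled to the library size. It is a single mean over 6 KO and 6 WT libraries, without a spread, and a gene that differs between the groups lies at an intermediate value. Differences between genotypes and between sexes in these genes were not analysed here. The tables give no level per library and the columns of the authors' own comparisons were not used, so no SD, interval or test is given, and the order of genes with close values is not resolved. The depth of the libraries is unknown here. Because a longer transcript yields more reads at the same abundance, single genes were compared with each other per length, as CPM per kb of annotated exon, and values without a length are named as such. Each gene was placed by its percentile among the protein-coding rows, whose median was 4.55 CPM per kb and whose 75th percentile was 11.0 CPM per kb.

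Wnt proteins are secreted, lipid-modified ligands that bind Frizzled receptors. Together with the co-receptors LRP5 and LRP6, a bound Frizzled recruits Dishevelled and Axin, so that β-catenin is no longer degraded and enters the nucleus to act with factors of the TCF/LEF family. Other Wnt ligands act through Frizzled, ROR and RYK receptors without β-catenin, on cell shape and polarity. In the anterior eye the pathway takes part in the development of the periocular mesenchyme, from which the corneal endothelium arises, and secreted antagonists of the DKK and SFRP families limit it.

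The labelled tissue was checked first against marker genes. All 10 markers listed for corneal endothelium lay above percentile 75 of protein-coding rows per length. *Col8a2*, a collagen of Descemet membrane, had a mean of 1582 CPM per kb, *Atp1b1*, a subunit of the sodium pump, 842 CPM per kb, and *Slc4a11* itself 335 CPM per kb. The mean of *Slc4a11* was 10.71 log2 CPM over KO and WT libraries together, and it cannot serve as a check of the genotype labels. Markers of corneal stroma were also high, with 6 of the 7 that had a value above percentile 75. The highest of these were the matrix genes *Dcn* at 650, *Col1a1* at 583 and *Col1a2* at 346 CPM per kb, and the corneal proteoglycan gene *Kera* stood at 150 CPM per kb. The part of stromal cells in the levels of the Wnt genes was not tested.

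The other marker lists had lower medians, from 0.304 to 24.8 CPM per kb against 204 for endothelium and 150 for stroma, although single genes overlapped. Of 8 epithelial markers 2 were above percentile 75, *Krt5* at 15.8 and *Krt15* at 15.2 CPM per kb, and the next, the corneal keratin *Krt12*, was at 3.28 CPM per kb. None of the 6 iris pigment and melanocyte markers was above the median, with *Pmel*, *Dct* and *Tyrp1* the highest at 2.00, 1.63 and 0.924 CPM per kb. The same held for the 4 leukocyte markers with a value, led by *C1qa*, *Aif1* and *Cd68* at 4.08, 2.04 and 2.02 CPM per kb, and for the 4 lens markers, led by *Bfsp1*, *Crygs* and *Cryba1* at 2.59, 2.10 and 1.41 CPM per kb. Of 5 markers of vascular endothelium 1, *Kdr* at 9.10 CPM per kb, was above the median, while *Cdh5* and *Pecam1* stood at 0.389 and 0.304 CPM per kb. The 4 trabecular meshwork markers spread widely, and 2 of them were above the median. *Mgp* had 114 CPM per kb, above the lowest endothelium markers, *Ncam1* at 91.6 and *Cdh2* at 70.3 CPM per kb. *Chil1* had 22.3, *Myoc* 3.27 and *Cyp1b1* 0.0962 CPM per kb. The study reports lower *Cyp1b1* in KO than in WT CEC. Its mean over KO and WT libraries is therefore an intermediate value, and its level in WT libraries alone is not known here. Of 4 smooth muscle markers only 2 had a value, *Myh11* at 27.1 and *Acta2* at 22.7 CPM per kb, and the median of that list rests on these 2. In RNA from a tissue, fewer cells of a type and less RNA per cell cannot be told apart.

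The mouse annotation holds 68 protein-coding genes that match the naming rule, and 47 of them had a value. Over all genes, there were 12994 protein-coding rows against 21951 annotated protein-coding genes. The rule by which genes entered the tables is not given in the sources used here, and the levels of the remaining 21 genes were not analysed here. Ligands and the group of R-spondins and their receptors had values for the smallest share of their annotated genes, 8 of 19 and 3 of 7. Of the 4 *Rspo* genes only *Rspo1* had one. By contrast 11 of 13 receptors, all 3 co-receptors, all 8 cytoplasmic genes and all 4 TCF/LEF genes had a value, as did 10 of 14 antagonists. The *Wnt* genes without a value were *Wnt1*, *Wnt2*, *Wnt3*, *Wnt3a*, *Wnt7a*, *Wnt8a*, *Wnt8b*, *Wnt9b*, *Wnt10a*, *Wnt10b* and *Wnt16*, and the other genes without one were *Fzd9*, *Fzd10*, *Sfrp4*, *Sfrp5*, *Dkk4*, *Kremen2*, *Rspo2*, *Rspo3*, *Rspo4* and *Lgr5*.

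**Figure D1:**
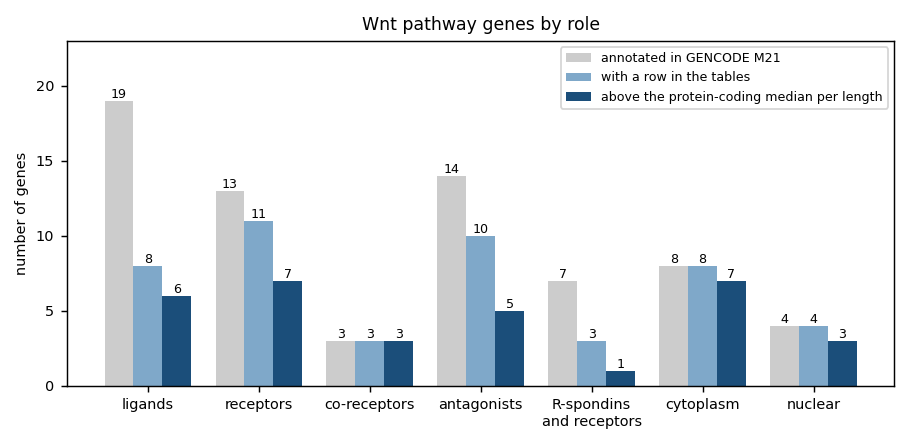
Number of Wnt pathway genes (vertical axis) by role, as annotated in the mouse genome, with a value in the tables, and above the protein-coding median per length. Ligands went from 19 annotated genes to 8 with a value, whereas all 8 cytoplasmic genes had one.

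Of the 47 members 45 (95.7%) had a mean of at least 1 CPM and 37 (78.7%) of at least 10 CPM, against 95.3% and 66.7% of all protein-coding rows. Without a length, their median was 5.38 log2 CPM, against 4.37 log2 CPM for all protein-coding rows. Per length, 32 of the 47 (68.1%) lay above the protein-coding median and 18 (38.3%) above percentile 75, where 25% of the rows lie by construction, and the median member stood at percentile 67.1. These shares describe the genes with a value and not the family as annotated. The range was wide, from 0.107 CPM per kb for *Frzb* to 208 CPM per kb for *Dkk2*.

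**Figure D2:**
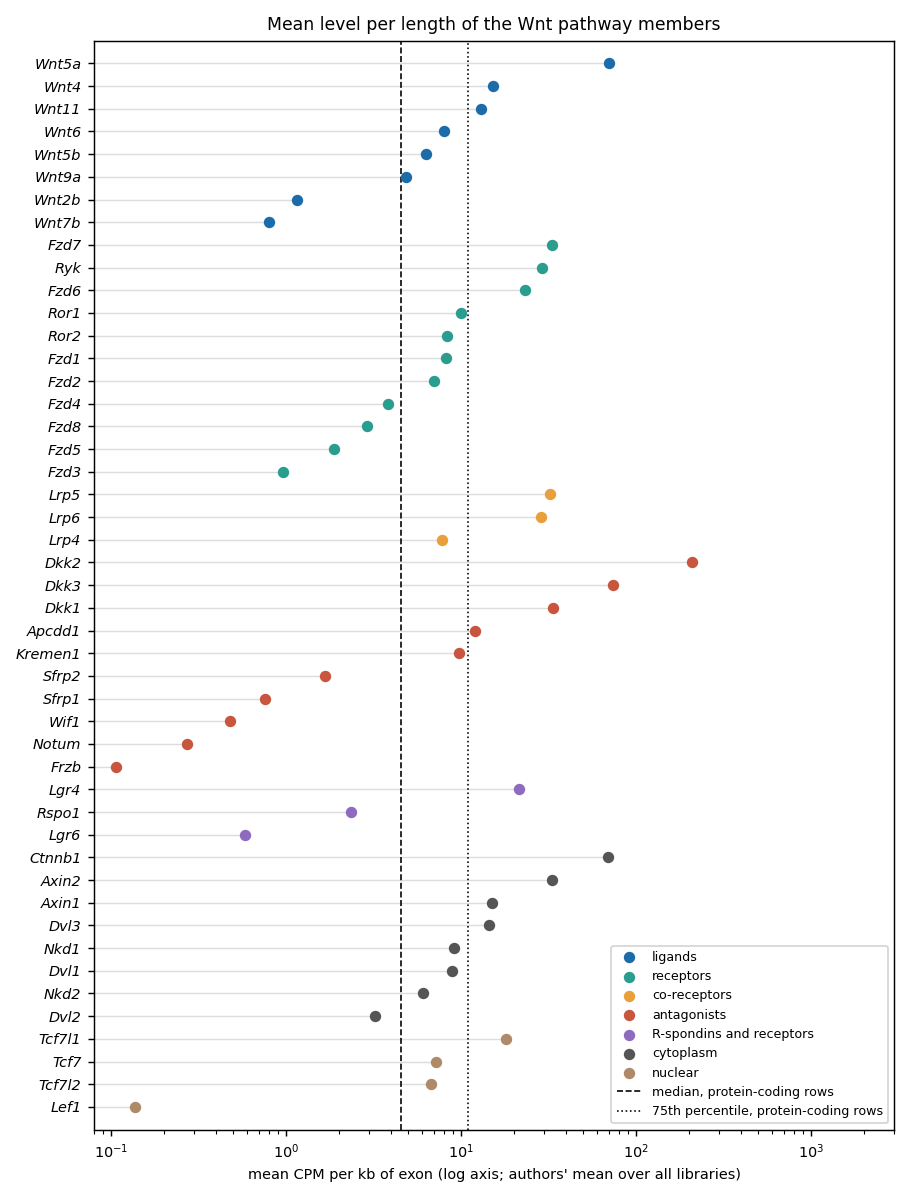
Mean level of the 47 members in CPM per kb of exon on a log axis, grouped and coloured by role. The dashed line is the median of protein-coding rows, 4.55 CPM per kb, and the dotted line their 75th percentile, 11.0 CPM per kb. *Dkk2*, *Dkk3*, *Wnt5a* and *Ctnnb1* lie farthest to the right, and *Lef1* and *Frzb* farthest to the left.

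Among the ligands, *Wnt5a* was at the top. *Wnt5a* (ENSMUSG00000021994, plus strand of chromosome 14 from 28504750 to 28527448 in GRCm38) encodes a ligand best known for signalling without β-catenin through ROR2. Its mean was 9.11 log2 CPM, or 70.5 CPM per kb, at percentile 97.5. It made up 58.8% of the summed level per length of the 8 *Wnt* genes, and 59.3% with the longest transcript as the length. *Wnt4* (chromosome 4, 137277489 to 137299726) followed at 15.2 CPM per kb, and *Wnt11* (chromosome 7, 98835112 to 98855195), another ligand known for signalling without β-catenin, at 13.1 CPM per kb. These 3 were the ligands above percentile 75.

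The other *Wnt* genes were lower. *Wnt6* had 8.01 CPM per kb, *Wnt5b*, the closest relative of *Wnt5a*, 6.35 CPM per kb, and *Wnt9a* 4.85 CPM per kb, just above the protein-coding median. The lowest 2 were *Wnt2b* at 1.16 and *Wnt7b* at 0.795 CPM per kb, at percentiles 20.2 and 15.5. Without a correction for length, *Wnt6*, *Wnt5b* and *Wnt9a*, with 2.19 to 3.33 kb of exon, fell below the median, at percentiles 45.8, 44.9 and 43.8. *Wnt9a* also fell below it with the longest transcript as the length, at percentile 43.1. Export of Wnt ligands depends on the acyltransferase PORCN and the carrier WLS. *Wls* stood at 37.1 CPM per kb (percentile 94.0) and *Porcn* at 2.53 CPM per kb (percentile 33.9).

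Of the Frizzled receptors, *Fzd7* and *Fzd6* were the highest. *Fzd7* (chromosome 1, 59482424 to 59486955) had 33.3 CPM per kb and *Fzd6* 23.3 CPM per kb, which were 40.9% and 28.6% of the summed level of the 8 *Fzd* genes per length. *Fzd1* and *Fzd2*, which belong with *Fzd7* to 1 subgroup of the family by sequence, had 8.20 and 7.05 CPM per kb. *Fzd4*, the receptor of norrin, had 3.82 CPM per kb, *Fzd8* 2.91, *Fzd5* 1.89 and *Fzd3* 0.957 CPM per kb, all under the protein-coding median. The norrin gene *Ndp*, listed among the other pathway genes, had no value, and its level was not analysed here. *Ryk*, an atypical receptor with a WIF-type ligand-binding domain, had 28.9 CPM per kb at percentile 92.0, between *Fzd7* and *Fzd6*. The receptor tyrosine kinase genes *Ror1* and *Ror2*, whose products bind WNT5A, had 9.98 and 8.34 CPM per kb, at percentiles 72.6 and 67.6.

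The β-catenin branch requires LRP5 or LRP6, and the levels of both genes were close. *Lrp5* (chromosome 19, 3584828 to 3686564) had 32.1 CPM per kb and *Lrp6* (chromosome 6, 134446476 to 134566965) 28.6 CPM per kb, at percentiles 92.8 and 91.9. With the longest transcript as the length the order turned, with 40.3% of the summed level of the 3 co-receptors for *Lrp5* and 47.8% for *Lrp6*. *Lrp4* (chromosome 2, 91457511 to 91513779), whose product binds the antagonist sclerostin and the synaptic protein agrin, was lower, at 7.84 CPM per kb and percentile 65.7.

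The antagonists held both the highest and the lowest member. *Dkk2* (ENSMUSG00000028031, plus strand of chromosome 3 from 132085292 to 132180304) had a mean of 9.59 log2 CPM, or 208 CPM per kb, at percentile 99.4. Dickkopf proteins bind LRP5 and LRP6, and mice without *Dkk2* are known to form skin-like tissue in place of corneal epithelium. The level of *Dkk2* per length lay within the range of the corneal endothelium markers, from 70.3 to 1582 CPM per kb, and also within that of the stroma markers, from 3.97 to 650 CPM per kb. *Dkk3*, a divergent member of the family that is not known as a classical LRP antagonist, had 74.0 CPM per kb, and *Dkk1*, the classical one, 33.7 CPM per kb. *Dkk2* made up 65.8% of the summed level of the 3 *Dkk* genes per length, with *Dkk3* at 23.5% and *Dkk1* at 10.7%. *Kremen1*, which encodes a membrane receptor of Dickkopf proteins, had 9.76 CPM per kb. *Apcdd1*, a membrane-bound inhibitor that binds Wnt ligands and LRP5, stood at percentile 77.2 per length, or 73.7 with the longest transcript.

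The other antagonists had lower levels. *Sfrp2* and *Sfrp1*, which encode secreted proteins with a Frizzled-type domain, had 1.68 and 0.759 CPM per kb. *Wif1* had 0.481 CPM per kb and *Frzb*, also a secreted Frizzled-related gene, 0.107 CPM per kb. *Notum*, whose product removes the lipid from Wnt ligands, had 0.272 CPM per kb. *Notum* and *Frzb* were the 2 members with a mean under 1 CPM, at -0.61 and -1.53 log2 CPM. These 5 genes lay between percentiles 1.34 and 25.7, and the 3 *Dkk* genes between percentiles 93.3 and 99.4.

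R-spondins strengthen Wnt signalling by binding LGR4, LGR5 or LGR6 and removing the ubiquitin ligases RNF43 and ZNRF3 from the receptors. *Lgr4* (chromosome 2, 109917647 to 110014257) had 21.6 CPM per kb, at percentile 88.4, against 0.583 CPM per kb for *Lgr6*. The only R-spondin with a value, *Rspo1*, had 2.36 CPM per kb, at percentile 32.5. *Znrf3* and *Rnf43* had 6.52 and 5.54 CPM per kb, both above the protein-coding median.

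Inside the cell, 7 of 8 members lay above the protein-coding median. *Ctnnb1* (ENSMUSG00000006932, chromosome 9 from 120929216 to 120960507), which encodes β-catenin, a protein of adherens junctions as well as of the Wnt pathway, had 69.4 CPM per kb, at percentile 97.4. The Dishevelled genes had 14.5 CPM per kb for *Dvl3*, 8.83 for *Dvl1* and 3.21 for *Dvl2*. *Dvl2* shares 1151 exonic bases with *Acadvl* on the opposite strand, and reads of both cannot be told apart if strand was not used in counting. Of the scaffold genes of the destruction complex, *Axin2* (chromosome 11, 108920349 to 108950783), which is itself a target of β-catenin, had 33.3 CPM per kb and *Axin1* 15.0 CPM per kb. The feedback genes *Nkd1* and *Nkd2*, whose products bind Dishevelled, had 9.12 and 6.04 CPM per kb.

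Of the nuclear members, *Tcf7l1*, often a repressor of target genes, had the highest level, 18.1 CPM per kb at percentile 85.8. *Tcf7* had 7.16 CPM per kb and *Tcf7l2* 6.71 CPM per kb, and with the longest transcript as the length *Tcf7l2* stood above *Tcf7*, with 33.9% against 16.3% of the summed level of the 3 *Tcf7* genes. *Lef1* was at the other end, with 0.28 log2 CPM and 0.138 CPM per kb, at percentile 2.07, or 5.01 with the longest transcript.

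The other genes of the pathway were followed in a list of 55, of which 48 had a value. Of these, 29 lay above the protein-coding median per length and 17 above percentile 75, where 25% of the rows lie by construction. These counts include the members that are also listed as transcriptional targets, named below. Of the 12 genes of the destruction complex with its kinases and ligases, 9 lay above the median and 6 above percentile 75. These 6 were the casein kinase genes *Csnk1a1* at 25.6 and *Csnk1d* at 16.4 CPM per kb, the ubiquitin ligase gene *Fbxw11* at 16.7, the kinase gene *Gsk3b* at 16.5, the scaffold gene *Apc* at 16.3 and the tankyrase gene *Tnks2* at 13.7 CPM per kb. Of 10 nuclear partners 3 were above percentile 75, the co-repressor gene *Tle4* at 20.8 and the co-activator genes *Bcl9l* at 14.4 and *Pygo2* at 11.8 CPM per kb. Planar polarity genes were represented by 9 of 10, with *Prickle1* at 21.2, *Ptk7* at 18.7, *Celsr2* at 13.0 and *Prickle2* at 12.2 CPM per kb above percentile 75. *Reck*, a membrane partner of WNT7 signalling, had 13.7 CPM per kb. With the longest transcript as the length, *Celsr2*, *Prickle2*, *Pygo2* and *Reck* were below percentile 75, at 73.2, 71.8, 71.8 and 74.0.

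Genes known as transcriptional targets of β-catenin were not at 1 level. Of 12 listed 10 had a value, 6 of them above the protein-coding median and 2, *Axin2* and *Apcdd1*, above percentile 75. With the longest transcript as the length *Apcdd1* was below percentile 75, at 73.7. The 4 below the median were *Myc* at 1.19, *Ccnd1* at 0.613, *Notum* at 0.272 and *Lef1* at 0.138 CPM per kb. This list shares 6 genes with the members, *Axin2*, *Apcdd1*, *Nkd1*, *Tcf7*, *Notum* and *Lef1*, that had a value.

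**Figure D3:**
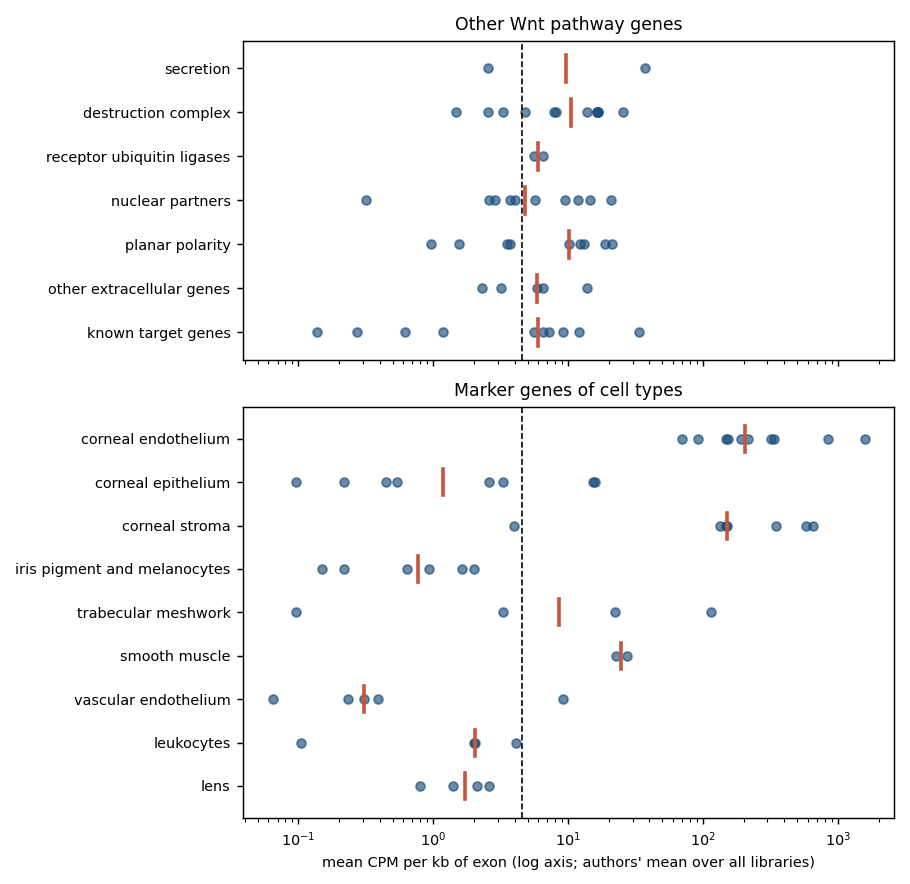
Mean level in CPM per kb of exon (log axis) of each gene in the lists of other pathway genes (upper panel) and cell type markers (lower panel). Points are genes, red bars the list medians on the log scale and the dashed line the protein-coding median, 4.55 CPM per kb. The medians of the corneal endothelium and stroma lists, 204 and 150 CPM per kb, lie to the right of the other list medians, while single genes of the lists overlap.

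Promoter windows from RefSeq (GRCm38.p6, 250 bases before to 50 after a start site) were matched by symbol to 32 of the 47 members. With the highest value taken over the windows of a gene, these members had 30.5 CpG dinucleotides and 69.5% G and C at the median, against 22.0 and 62.0% for protein-coding rows. Of the 21 family genes without a value, 14 had a window, and their medians were 26.5 and 68.8%, so that high G and C was not particular to the members. The core of the TCF/LEF motif, CTTTGA on either strand, was found in 7 of the members' 41 windows (17.1%). It was found in 11.6% of the windows of protein-coding rows and in 16.0% of all windows. Of 14 windows of family genes without a value, 0 held it. *Dkk1* and *Lef1*, both known as targets of the pathway, were the 2 members with 2 matches in a window, and their windows are shown for that reason, with the matches in capitals. The *Dkk1* window lies on the minus strand at chr19:30549447-30549746 and spans the annotated start of the gene. The *Lef1* window, 1 of 4 for that gene and the only one with a match, lies on the plus strand at chr3:131156044-131156343, inside the gene.
*Dkk1*: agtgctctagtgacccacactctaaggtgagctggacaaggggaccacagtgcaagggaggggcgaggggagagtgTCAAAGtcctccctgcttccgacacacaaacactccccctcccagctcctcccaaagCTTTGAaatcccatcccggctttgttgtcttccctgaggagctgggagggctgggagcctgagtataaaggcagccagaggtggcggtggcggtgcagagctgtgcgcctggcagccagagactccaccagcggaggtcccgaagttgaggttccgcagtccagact
*Lef1*: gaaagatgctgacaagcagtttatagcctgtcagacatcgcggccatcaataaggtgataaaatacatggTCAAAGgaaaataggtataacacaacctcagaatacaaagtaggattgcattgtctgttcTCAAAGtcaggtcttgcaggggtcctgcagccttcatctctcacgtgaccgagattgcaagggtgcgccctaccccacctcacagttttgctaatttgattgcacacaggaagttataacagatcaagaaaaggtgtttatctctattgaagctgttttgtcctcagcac

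The level of *Dkk1* was at percentile 93.3 and that of *Lef1* at percentile 2.07, each taken over the whole gene and not per start site. A relation between matches and level was not tested. A match describes letters in the window and is not a measured binding site.

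**Figure D4:**
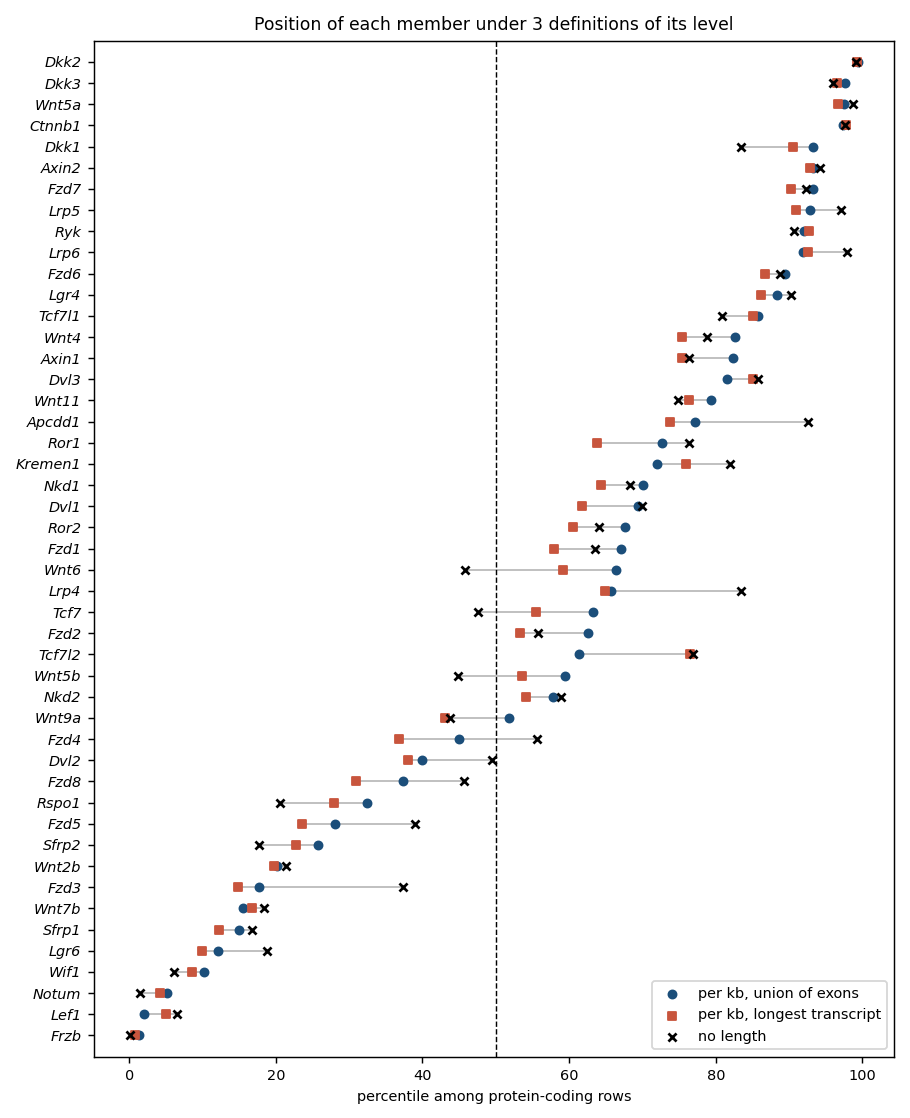
Percentile of each member among protein-coding rows (horizontal axis) with the level taken per kb of the union of exons, per kb of the longest transcript, or without a length. Lines join the 3 values of a gene and the dashed line is percentile 50. *Wnt6*, *Wnt5b*, *Wnt9a*, *Tcf7* and *Fzd4* change sides of it, and the other 42 members do not.

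The choice of length moved single genes more than groups. *Wnt6*, *Wnt5b*, *Wnt9a*, *Tcf7* and *Fzd4* were the 5 members that changed sides of the protein-coding median. *Fzd4* stood at percentile 45.0 per kb of exon, at 36.8 with the longest transcript and at 55.6 without a length. *Tcf7* stood at 63.2, 55.5 and 47.6 in the same order. The exons of 13 members overlap those of another annotated gene, among them *Wnt5a* over 358 bases, *Axin2* over 209 bases and *Ctnnb1* over 759 bases of *Ulk4*, each on the opposite strand.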

How the data were processed

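RNAseq libraries from total RNA of Descemet membranes were made with a stranded low-input kit and sequenced as paired-end reads. Per the labels and the methods, the authors aligned reads to GRCm38/mm10 with Hisat2, normalized CPM by TMM and fitted limma with voom. The counter, the annotation and the versions are not given in the sources used here. The authors deposited 3 tables of 15838 genes. From these, the mean log2 CPM over all libraries, equal in the 3 tables, was used. The other columns hold the authors' own comparisons for genotype, sex and interaction (log2 fold change, t, p-value, adjusted p-value and log odds), and none was used. No column holds values per library, so that depth is unknown, and no error was computed and no test made.

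Lengths are the union of exons in GENCODE M21 (GRCm38), which held 15824 of the 15838 genes by gene ID and 12990 of the 12994 protein-coding ones. CPM per kb is CPM divided by that length in kb, and percentiles are over the 12990 rows. CPM here is the power of 2 of a mean of log2 values. All members are named; of the other pathway genes, those above percentile 75 per length plus *Porcn*, *Wls*, *Rnf43*, *Znrf3* and *Ndp*, and of markers the 3 highest per list and *Slc4a11* (1 marker list is not reported here); others were named after their values were seen. Members and lists were chosen with earlier results of these data known. The planned protein features were not computed, as no protein table was used here. Length and percentile functions were tested on simulated data. Alternatives were the longest transcript, no length, rows of at least 1 CPM, a threshold of 10 CPM and the mean of the other tables. Python 3.11.15, pandas 2.3.3, numpy 2.4.6 and matplotlib 3.10.9 were used.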

Additional observations from a re-analysis of the deposited data

How the results depend on the processing

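The number of members above the protein-coding median per length was 32, and between 29 and 31 with the longest transcript as the length, with no length, or among rows of at least 1 CPM. The number above percentile 75 was 18, and between 18 and 21 in these settings. The median percentile of the members, 67.1, was 61.7 with the longest transcript, 68.3 with no length and 66.0 among rows of at least 1 CPM, where 45 members were left. At a threshold of 10 CPM in place of 1 CPM, 37 members passed in place of 45. The mean level of all 47 members was the same in each of the 3 tables. No paired analysis was possible because no values per library were used, and for the same reason no replicate could be left out. Without a spread between libraries, the order of members with close levels, such as *Lrp5* and *Lrp6* or *Axin2* and *Fzd7*, is not resolved.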

Other observations

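Several *Wnt* genes lie beside each other in the mouse genome. With a distance of at most 100 kb, the family as annotated holds 4 such pairs, and every gene in them is a ligand gene. In 2 of the pairs 1 gene had a value and its neighbour had none. *Wnt6*, at 4.13 log2 CPM, lies 6.19 kb from *Wnt10a* on chromosome 1, and *Wnt9a*, at 4.01 log2 CPM, lies 16.2 kb from *Wnt3a* on chromosome 11. The other pairs, *Wnt9b* with *Wnt3* on chromosome 11 and *Wnt10b* with *Wnt1* on chromosome 15, had no value for either gene and were not analysed here.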
